A study of Mus musculus with 2 samples.

Results

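The H2 genes encode the major histocompatibility complex (MHC) of the mouse, and they were examined here for peaks of the transcription factor Myb. Members were all protein-coding genes of GENCODE vM21 whose symbol starts with "H2-", which gave 34 of 21938 protein-coding genes on the nuclear chromosomes, all on chromosome 17. They comprised 2 classical class I genes, 22 nonclassical class I genes, 4 classical class II genes, 5 nonclassical class II genes and H2-Ke6, a steroid dehydrogenase gene that is not an MHC molecule in spite of its symbol. ChIP-Seq was done on WT mouse bone marrow depleted of lineage-positive cells (Lin– cells), which leaves mainly hematopoietic stem and progenitor cells. In the paper, WT stands for mice of a C57BL background with floxed Ep300 and no Cre. It describes poly(I:C) injections for its genotypes, WT included, as the means of deleting Ep300. Whether the mice behind the Myb library were injected is not stated, so the cells cannot be taken as untreated. An effect of poly(I:C) on the peaks was not tested. Per the labels, 25M cells of a purity above 80% were used, so that cells with lineage markers may remain, and the number of mice was not given. A peak list holds no expression values, and the markers of the cells could not be checked in it. There was 1 library with an antibody against Myb and 1 with nonspecific rabbit IgG, and the second served only as the control for peak calling. With no replicate library, no difference was tested, and the intervals given cover counting error only.

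Classical class I molecules sit on almost all nucleated cells and show peptides from inside the cell to CD8+ T cells, whereas classical class II molecules are found mainly on B cells, dendritic cells and macrophages and show peptides from outside the cell to CD4+ T cells. The nonclassical class I genes encode molecules of more restricted expression, and the nonclassical class II genes encode the chaperones that load peptides onto class II molecules. Promoters of both classes share a module of X and Y boxes. The Y box holds the letters CCAAT and is bound by NF-Y, whereas RFX and CREB proteins bind the X box, and the coactivators NLRC5 and CIITA act through the whole module. Myb itself binds the letters CAACGG or CAACTG or TAACGG or TAACTG, and is needed for the maintenance of hematopoietic progenitors.

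Sequence of the summit, the position with the most reads, is shown first for the strongest peak at an H2 gene and for the peaks that carried the Myb letters. Each run is 101 bases of the plus strand of mm10 (GRCm38) centered on the summit, and capitals mark the Myb letters read on either strand. The first, at the start of H2-K1, had none within this window.
H2-K1 start site, chr17:34000209-34000309: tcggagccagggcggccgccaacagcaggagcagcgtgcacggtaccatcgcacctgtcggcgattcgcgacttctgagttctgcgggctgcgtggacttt
H2-D1 exon, chr17:35265647-35265747: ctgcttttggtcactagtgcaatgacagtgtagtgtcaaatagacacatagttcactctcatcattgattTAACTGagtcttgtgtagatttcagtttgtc
H2-T24 upstream, chr17:36020729-36020829: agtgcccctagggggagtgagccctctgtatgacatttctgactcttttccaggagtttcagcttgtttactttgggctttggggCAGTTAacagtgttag
H2-Ab1 start site, chr17:34257631-34257731: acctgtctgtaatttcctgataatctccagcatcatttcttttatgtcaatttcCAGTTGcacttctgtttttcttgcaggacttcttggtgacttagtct
H2-Ab1 coding exon, chr17:34264752-34264852: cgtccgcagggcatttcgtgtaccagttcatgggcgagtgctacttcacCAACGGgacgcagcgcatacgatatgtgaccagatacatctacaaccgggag
H2-DMa intron, chr17:34124791-34124891: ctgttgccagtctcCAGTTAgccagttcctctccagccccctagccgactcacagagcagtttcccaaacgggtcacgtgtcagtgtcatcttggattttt
H2-DMa upstream, chr17:34111510-34111610: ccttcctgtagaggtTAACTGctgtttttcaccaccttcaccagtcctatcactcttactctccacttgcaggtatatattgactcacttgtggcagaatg

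Promoters of H2-K1, H2-D1, H2-T22 and H2-Eb1 are shown to compare genes with a peak at the start site and a class II gene without any. They are RefSeq promoters of GRCm38.p6 on the strand of the gene, running from 250 bases before to 50 bases after the start. Capitals mark CCAAT or its reverse complement ATTGG and, in H2-T22 alone, also an interferon response element, which was searched as GAAANNGAA on both strands.
H2-K1, minus strand, chr17:34000298-34000597: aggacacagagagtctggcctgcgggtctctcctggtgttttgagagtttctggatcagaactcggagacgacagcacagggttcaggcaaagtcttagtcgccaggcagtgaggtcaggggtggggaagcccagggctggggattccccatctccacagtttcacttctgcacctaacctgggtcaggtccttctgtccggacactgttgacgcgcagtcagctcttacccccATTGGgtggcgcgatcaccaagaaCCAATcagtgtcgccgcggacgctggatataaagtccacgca
H2-D1, plus strand, chr17:35262844-35263143: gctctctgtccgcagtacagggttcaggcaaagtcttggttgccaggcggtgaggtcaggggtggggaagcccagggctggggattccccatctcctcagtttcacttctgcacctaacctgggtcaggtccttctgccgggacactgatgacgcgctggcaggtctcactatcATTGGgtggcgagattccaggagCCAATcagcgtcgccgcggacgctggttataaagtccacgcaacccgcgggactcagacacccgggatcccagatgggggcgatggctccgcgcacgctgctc
H2-T22, minus strand, chr17:36042693-36042992: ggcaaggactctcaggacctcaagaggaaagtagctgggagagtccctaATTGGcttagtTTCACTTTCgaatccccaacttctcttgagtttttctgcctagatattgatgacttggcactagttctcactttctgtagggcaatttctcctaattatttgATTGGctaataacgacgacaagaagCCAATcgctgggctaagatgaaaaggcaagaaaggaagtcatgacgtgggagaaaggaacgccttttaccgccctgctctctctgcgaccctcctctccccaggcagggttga
H2-Eb1, plus strand, chr17:34305617-34305916: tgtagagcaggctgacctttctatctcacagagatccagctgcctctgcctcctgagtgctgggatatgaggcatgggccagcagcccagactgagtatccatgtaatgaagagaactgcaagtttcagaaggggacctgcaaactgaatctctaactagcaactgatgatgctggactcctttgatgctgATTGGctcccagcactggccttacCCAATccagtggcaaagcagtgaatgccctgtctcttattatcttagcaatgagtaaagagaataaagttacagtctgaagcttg

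Myb peaks lay at both classical class I genes and at all 5 nonclassical class II genes, but at 9 of 22 nonclassical class I genes, and at 3 of 4 classical class II genes, where they were weak. A gene was counted when the summit of a peak lay in the gene or within 10 kb of it, and 20 of 34 H2 genes met this (58.8%), compared with 52.6% of all protein-coding genes. H2 genes are short, and of the 10052 protein-coding genes in the same range of length 46.9% had such a peak. Of the 139 other protein-coding genes that lie between the outermost H2 genes, 65.5% had one. A promoter peak, with the summit within 3 kb of an annotated start site, was listed for 14 of 34 H2 genes (41.2%), which was near the 39.9% of all protein-coding genes and below the 51.1% of the other genes of the interval. The H2 genes as a whole were thus below the other genes of their interval, and the spread between their classes was wide.

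**Figure D1:**
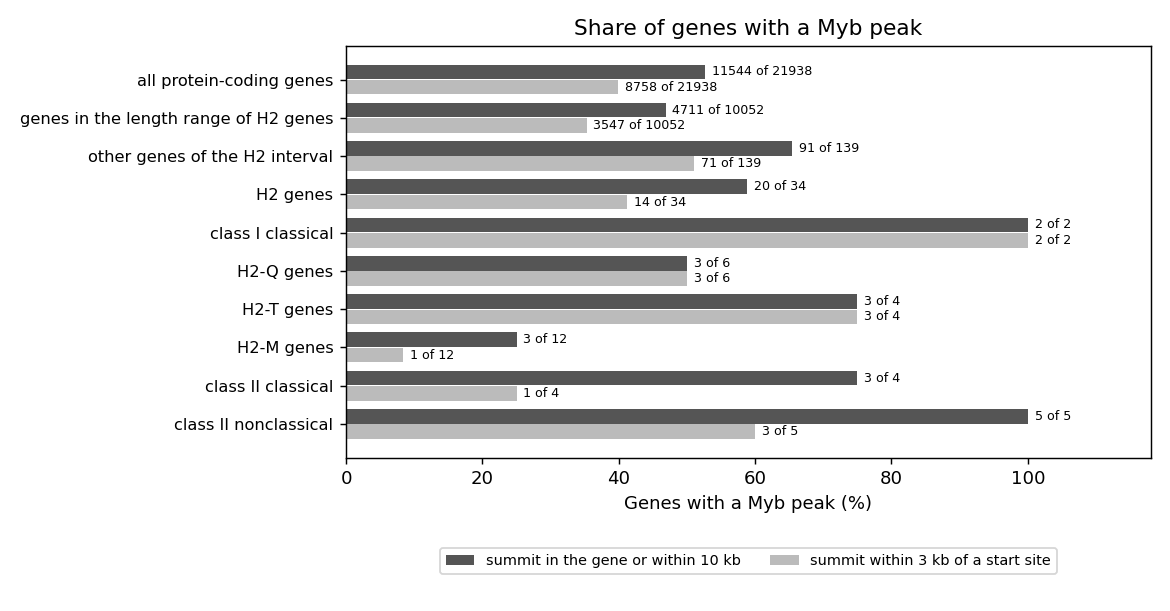
Percent of genes with a Myb summit in the gene or within 10 kb (dark bars) and with a summit within 3 kb of a start site (light bars), with the number of genes beside each bar. The H2-M genes had the lowest shares (3 of 12 and 1 of 12) and the classical class I genes had a peak in 2 of 2 by both measures, as had 5 of 5 nonclassical class II genes by the wider one.

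The rule gave 57 distinct peaks and 72 pairs of a gene and a peak, because 12 peaks lay within 10 kb of more than 1 H2 gene. Fold enrichment, which is Myb signal at the summit over IgG signal around it, had a median of 4.15 in these 57 peaks (quartiles 3.43 and 5.97, range 2.05 to 11.1), compared with 4.51 in all 25793 peaks. The reads at the summit ran from 12 to 46 with a median of 19, compared with 18 over all peaks. A q-value above 0.05 was listed for 6 of 57 peaks (10.5%), compared with 7.24% of all peaks. In strength the peaks at H2 genes were thus close to the average of the list. Summits lay inside an H2 gene in 25 cases, and for 44 of 57 the nearest protein-coding start site was that of an H2 gene. The other 13 were nearer to Brd2, Ring1, Rxrb, Btnl2 or Gnl1.

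**Figure D2:**
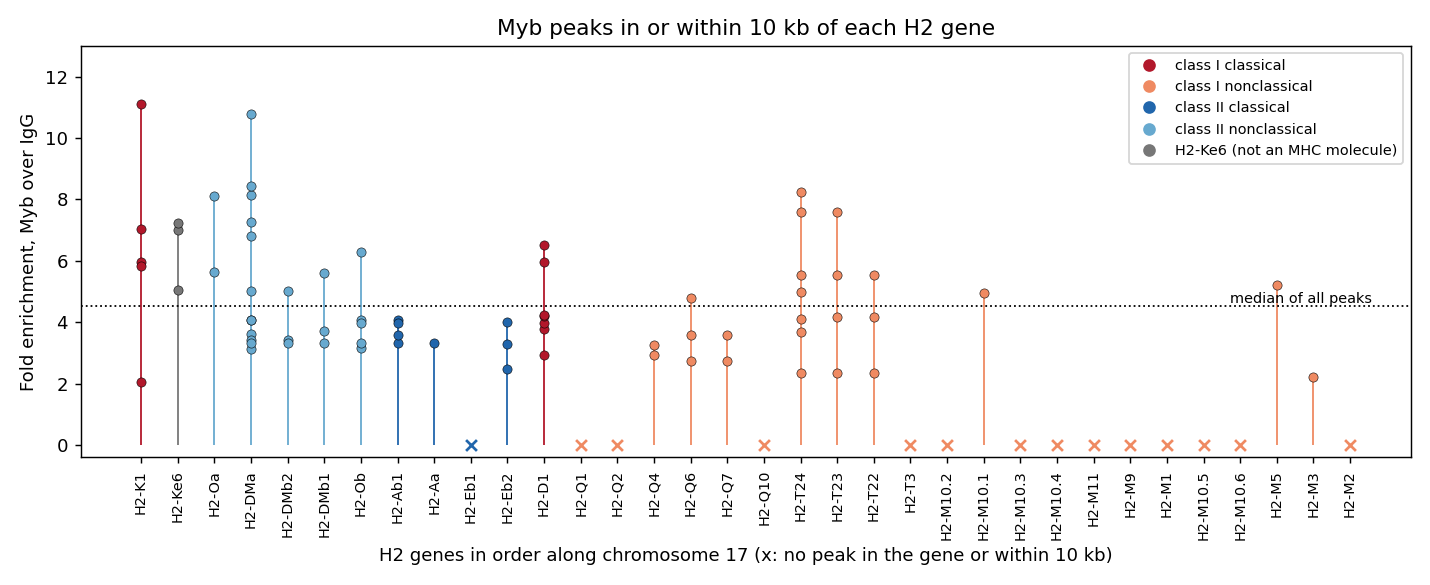
Fold enrichment (linear axis) of every Myb peak in or within 10 kb of each H2 gene, with genes in order along chromosome 17 and colored by class. A peak near several genes is drawn at each of them, crosses mark the 14 genes without a peak, and the dotted line is the median of all peaks, 4.51.

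H2-K1 and H2-D1, the classical class I genes, carried 12 of the 57 peaks. H2-K1 (chr17:33996017-34000347, minus strand) had 5, all within 3 kb of 1 of its 16 annotated transcript starts. The strongest peak of any H2 gene was at its promoter (chr17:33999258-34000777), with 11.1-fold enrichment, 39 reads (95% exact Poisson interval 27.7 to 53.3) and a −log10 q-value of 22.7. Its summit lay in the 5′ end of the gene, 88 bp into the transcript counted from the RefSeq start, and the peak ranked 768 of 25793 by fold enrichment. Another 3 peaks followed toward the 3′ end, and their strength did not fall steadily with distance. The peak at an exon (2570 bp from the 5′ end) was 7.04-fold with 23 reads, that in an intron (1528 bp) was 5.83-fold with 19 reads, and that downstream of the gene (4657 bp) was 5.97-fold with 19 reads. The fifth peak, 3741 bp from the 5′ end, was the weakest at any H2 gene, with 2.05-fold enrichment, 12 reads (6.20 to 21.0) and a −log10 q-value of 0.085.

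H2-D1 (chr17:35262730-35267499, plus strand) had 7 peaks, 3 upstream and 4 inside the gene. The strongest lay 3359 bp upstream (chr17:35259206-35259922) at 6.51-fold with 24 reads (15.4 to 35.7), and the next lay 4489 bp upstream at 5.95-fold with 23 reads. At the start site itself (chr17:35261799-35264005) the enrichment was 3.77-fold with 33 reads (22.7 to 46.3) over an IgG background of 6.0 reads. That background was the highest of the 57 peaks, whose median was 2.38 reads, and the corresponding value at the H2-K1 start was 1.79 reads. The summit at H2-D1 lay 24 bp past the RefSeq start, in a coding exon. By reads, then, the intervals of the H2-K1 and H2-D1 start sites overlapped, and by fold enrichment the peaks differed by their backgrounds as well. The remaining peaks of H2-D1 were 3.98-, 4.19- and 4.22-fold inside the gene and 2.94-fold at 5233 bp upstream.

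**Figure D3:**
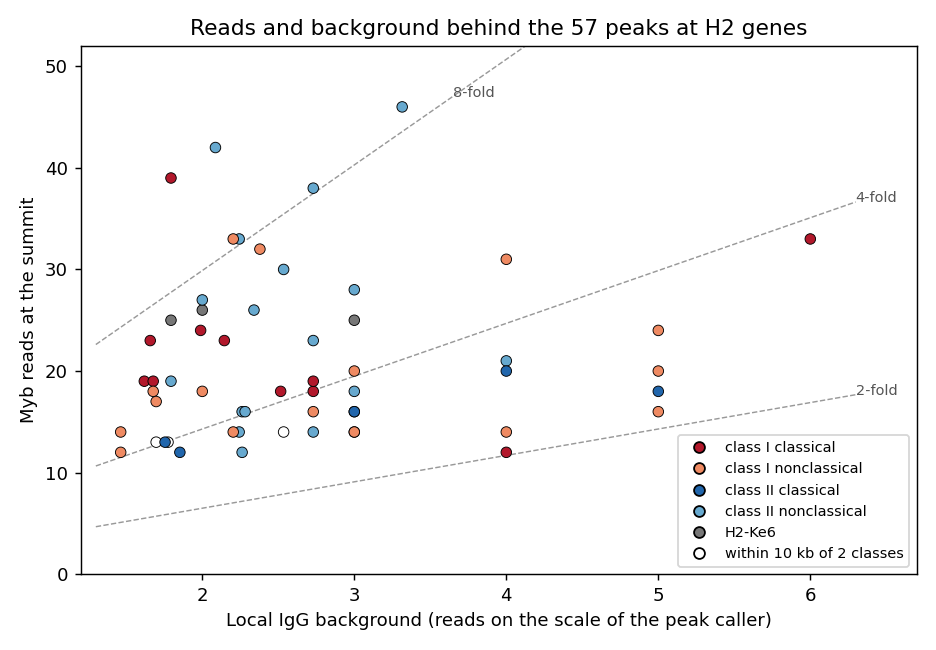
Myb reads at the summit against the local IgG background for the 57 peaks at H2 genes, with dashed lines of equal fold enrichment (2-, 4- and 8-fold). The peak at the start of H2-D1 (33 reads) sits at the far right at a background of 6.0 reads, and that of H2-K1 (39 reads) at the left at 1.79 reads.

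Among the nonclassical class I genes the H2-T group held the stronger peaks, with 3 of 4 genes called, followed by H2-Q with 3 of 6 and H2-M with 3 of 12. H2-T24 had a peak 219 bp upstream of its start (chr17:36019880-36021512) at 7.58-fold with 32 reads (21.9 to 45.2) and a −log10 q-value of 13.2, and its summit holds the Myb letters shown above. Another 4 peaks lay downstream of H2-T24, between 8.24-fold (chr17:35997853-35999840, 33 reads) and 3.67-fold. The 8.24-fold peak was 18690 bp from the start of Gnl1, the nearest protein-coding start, and 21447 bp from that of H2-T24. H2-T24 was thus the only nonclassical class I gene with a promoter peak above 7-fold.

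H2-T23 encodes Qa-1, the ligand of the NKG2A receptor on natural killer cells. The peak inside it, toward its 3′ end, was 5.55-fold with 18 reads (10.7 to 28.4), and another just past that end was 2.35-fold with 14 reads and a −log10 q-value of 0.39. H2-T22, a molecule seen by a subset of γδ T cells, had a peak on its start site, 33 bp past the RefSeq start, at 4.15-fold with 12 reads (6.20 to 21.0). H2-T3, which encodes the thymus leukemia antigen, had none, and the nearest summit was 81574 bp away.

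Of the H2-Q genes, H2-Q4, H2-Q6 and H2-Q7 had peaks at their start sites. H2-Q7 encodes a Qa-2 antigen and H2-Q6 is its close relative. The summit at H2-Q6 lay 10 bp before the start, at 4.78-fold with 14 reads (7.65 to 23.5). At H2-Q4 the summit lay 135 bp past the start, at 3.24-fold with 24 reads (15.4 to 35.7) over a background of 5.0 reads, and a further intronic peak was 2.94-fold with 14 reads. At H2-Q7 summits lay 152 bp before and 203 bp after the 5′ end, at 2.73- and 3.57-fold with 20 and 16 reads. The peaks of the H2-Q genes therefore all lay below 5-fold, and none reached a −log10 q-value of 5. H2-Q1, H2-Q2 and H2-Q10, a gene known for a secreted liver product, had none, with the nearest summits 52916, 32990 and 30731 bp away.

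The H2-M genes lay at the far end of the interval, and many of them are known from neurons of the vomeronasal organ. H2-M3, which presents N-formylated peptides of bacteria, had 1 promoter peak, 652 bp past its start, at 2.22-fold with 16 reads (9.15 to 26) and a −log10 q-value of 0.52. H2-M5 had a peak 3118 bp upstream at 5.22-fold with 17 reads (9.90 to 27.2). H2-M10.1 had one 11371 bp from its 5′ end, past its 3′ end, at 4.95-fold with 18 reads (10.7 to 28.4). The 9 others, H2-M1, H2-M2, H2-M9, H2-M11 and H2-M10.2 to H2-M10.6, had no peak within 10 kb, and their nearest summits were 12366 (H2-M10.2) to 156444 bp (H2-M1) away. Only H2-M3 of the 12 thus had a summit near its start, and that peak missed a q-value of 0.05.

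The classical class II genes had 8 peaks, of which the strongest was 4.08-fold, and none of the 8 reached a −log10 q-value of 5. H2-Ab1, the β chain of I-A, was the single classical class II gene with promoter peaks, of which it had 3. The summit of the first lay 8 bp before the 5′ end of the gene (chr17:34257502-34257798) at 3.97-fold with 13 reads (6.92 to 22.2) and a −log10 q-value of 2.92, and it carries the Myb letters shown above. The others lay inside H2-Ab1, near further annotated starts. The peak at 5533 bp from the 5′ end, 13 bp from such a start, was 3.33-fold with 14 reads, and the one in a coding exon at 7113 bp, 1471 bp from a start, was 3.59-fold with 12 reads, again with Myb letters. The 4.08-fold peak lay 8454 bp upstream of H2-Ab1 in a UTR of H2-Ob, with 13 reads.

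H2-Aa, the α chain of I-A, had a single peak 5993 bp upstream at 3.33-fold with 16 reads (9.15 to 26). H2-Eb1, the β chain of I-E, had none within 10 kb, and the nearest summit, which is the one upstream of H2-Aa, was 12051 bp from it. H2-Eb2, a second β chain gene of the I-E type, had an intronic peak at 3.99-fold with 13 reads and a pair past its 3′ end at 3.28- and 2.48-fold with 20 and 18 reads, over backgrounds of 4.0 and 5.0 reads. So no classical class II gene but H2-Ab1 had a summit within 3 kb of its start, at the depth of this library.

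The nonclassical class II genes carried 21 peaks, with a highest fold enrichment of 10.8, but most of the strong ones lay at or beside Brd2, a bromodomain gene that overlaps H2-DMa. H2-DMa (chr17:34119541-34139101, plus strand), the α chain of the H2-DM chaperone that exchanges peptides on class II molecules, had 12. The 10.8-fold peak (chr17:34120220-34121808, 42 reads, 30.3 to 56.8) had its summit 36 bp from a start of Brd2 and 1359 bp from one of H2-DMa. The peak with the most reads of the 57 (chr17:34118635-34120129, 46 reads, 33.7 to 61.4) was 8.43-fold, with its summit 182 bp upstream of the first H2-DMa start and within the untranslated part of Brd2. Further peaks nearer to H2-DMa than to Brd2 were 6.81-fold with 30 reads at 3680 bp from the 5′ end and 7.26-fold with 27 reads at 5300 bp, in introns. Their summits lay 375 and 1995 bp from annotated starts of H2-DMa. A weaker peak, 3.43-fold with 21 reads over a background of 4.0 reads, lay in a UTR of H2-DMa, 173 bp from such a start. The 7.26-fold peak carries the Myb letters shown above, as does a 4.08-fold peak 7981 bp upstream, beside Brd2.

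H2-DMb1 and H2-DMb2 encode the β chains of H2-DM. H2-DMb2 had peaks 590 bp before its start (5.01-fold, 23 reads) and 459 bp after it (3.33-fold, 16 reads). H2-DMb1 had no promoter peak, and the strongest peak in its window, 16600 bp from the 5′ end, was 5.59-fold with 19 reads. Both β chain genes thus had peaks of about 5-fold, but only that of H2-DMb2 lay within 3 kb of an annotated start of the gene.

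H2-Oa and H2-Ob encode H2-O, the inhibitor of H2-DM. H2-Ob had its strongest peak 3868 bp upstream at 6.29-fold with 26 reads (17 to 38.1) and promoter peaks at 4.08-fold with 13 reads, 771 bp from an annotated start, and at 3.16-fold with 14 reads. H2-Oa had no summit in the gene or within 3 kb of it, and its peaks, 8.11-fold with 38 reads (26.9 to 52.2) and 5.64-fold with 28 reads, lay 9537 and 10791 bp from its 5′ end, on the side of Brd2. When the window was narrowed to 3 kb, 3 of 5 nonclassical class II genes kept a peak, since those of H2-Oa and H2-DMb1 were all farther away. H2-Ke6 had a peak on its start site at 5.06-fold with 25 reads, and 2 others at the starts of its neighbors Ring1 (7.0-fold, 26 reads) and Rxrb (7.24-fold, 25 reads).

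**Figure D4:**
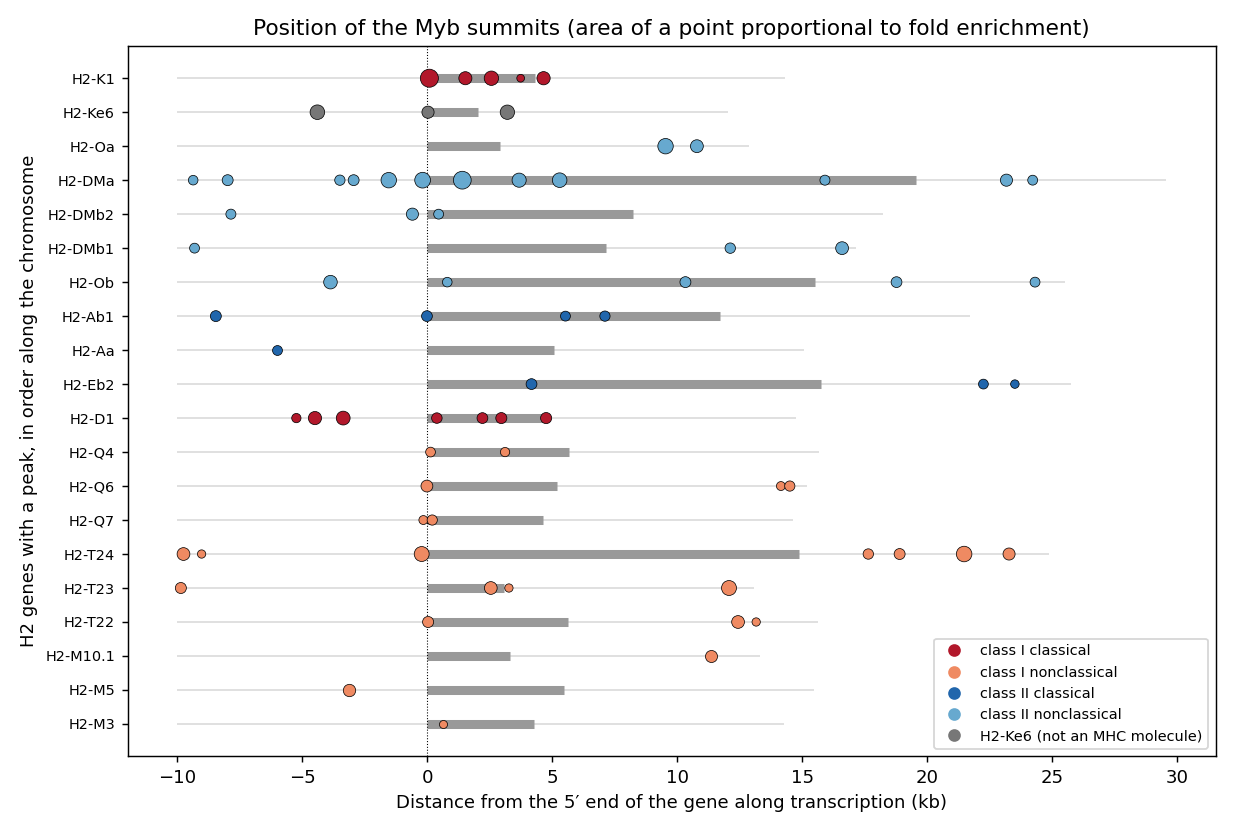
Position of each Myb summit relative to the 5′ end of the 20 H2 genes with a peak, in kb along the direction of transcription, with the area of a point proportional to its fold enrichment. Thick bars are gene bodies and thin lines the 10 kb on either side. Summits lie within 388 bp of 0 in H2-K1, H2-Ke6, H2-DMa, H2-Ab1, H2-D1, H2-Q4, H2-Q6, H2-Q7, H2-T24 and H2-T22. H2-Oa, H2-Aa and H2-M10.1 are among the genes with none there.

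At a −log10 q-value of at least 5, 12 of 34 H2 genes kept a peak (35.3%), compared with 35.9% of all protein-coding genes. They were both classical class I genes, all 5 nonclassical class II genes, H2-Ke6, H2-T22, H2-T23, H2-T24 and H2-M5. H2-T22 was among them through the 5.55-fold peak inside H2-T23, 12438 bp from its 5′ end, and the peak on its own start site had a −log10 q-value of 2.85. None of the H2-Q genes and none of the classical class II genes was among them.

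Peaks were unevenly spread along the H2 interval (chr17:33996017-37483552). It held 164 summits in 3.49 Mb, which is 47 per Mb, compared with 13.8 per Mb on chromosome 17 and 9.74 per Mb over chromosomes 1 to 19, X and Y. The interval is also dense in genes. It held 34 H2 and 139 other protein-coding genes, compared with 21938 on the nuclear chromosomes, of which chromosomes 1 to 19, X and Y have 2648 sequenced Mb. No density given here was adjusted for the number of genes. From H2-K1 to H2-Eb2 the density was 116 per Mb, from H2-D1 to H2-Q10 42.5, from H2-T24 to H2-T3 21.7 and from H2-M10.2 to H2-M2 12.5. These segments held 40, 9, 4 and 15 of the 164 summits, and the stretches between them were not counted separately. Across the segments alone, density fell from the class II end to the H2-M end. Of the 19 olfactory receptor genes that are interspersed at that end, 2 had a summit within 10 kb, whereas 89 of the 120 remaining genes of the interval did (74.2%).

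The Myb letters were found within 50 bp of 6 of 57 summits at H2 genes (10.5%, exact 95% interval 3.96 to 21.5), compared with 16.7% of all summits (16.2 to 17.1). In windows of the same size 500 bp to either side the share was 4.39% at H2 genes and 10.5% over all peaks. All 6 sequences are printed above, and they belonged to H2-Ab1 (2 peaks), H2-DMa (2 peaks), H2-D1 and H2-T24. None of the 5 peaks of H2-K1 had the letters in this window. The interval for the 57 peaks at H2 genes includes the share of all peaks, and no difference was tested.

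Letters of other factors were counted in the same windows, on both strands. CCAAT was found at 9 of 57 summits (15.8%, 7.48 to 27.9) and 11.1% of all summits. RUNX letters (TGTGGT) were found at 1 of 57 (1.75%, 0.044 to 9.39) and 9.79% of all summits, and GATA letters (AGATAA or TGATAA) at 4 of 57 (7.02%, 1.95 to 17) and 13.8%. ETS letters (GGAAGT) were found at 4 of 57 (7.02%) and 10.5% of all summits, and the interferon response element at 3 of 57 (5.26%) and 3.63%. The RUNX share at H2 genes rested on 1 summit, and its interval ended at 9.39%, just under the 9.79% of all summits. In the flanking windows the RUNX share at H2 genes was 9.65%. The intervals treat peaks as independent, which peaks in neighboring paralogs are not. No allowance was made for the number of motifs, and no difference was tested.

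H2 promoters carried CCAAT far more often than promoters in general. RefSeq held promoters for 31 of 34 H2 genes, and H2-Ab1, H2-Q1 and H2-T24 had no entry. CCAAT was found in a promoter of 28 of 31 genes (90.3%), compared with 37.4% of all 32851 promoters. The first share counts a gene by any of its promoters, whereas the second counts promoters. The genes without it were H2-Q10, H2-T3 and H2-M5, and H2-DMa held it in its later promoter alone. By position, 23 of the 34 promoter sequences of these genes (67.6%) had it from 100 to 51 bp before the start, compared with 12.5% of all promoters. In 10 genes, among them H2-K1, H2-D1, H2-Q4, H2-Q6, H2-Q7, H2-T22 and H2-Eb1, it was present on both strands at most 25 bp apart, with a gap of 24 bp in H2-K1 and H2-Eb1 and of 23 bp in H2-D1, as the sequences above show.

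**Figure D5:**
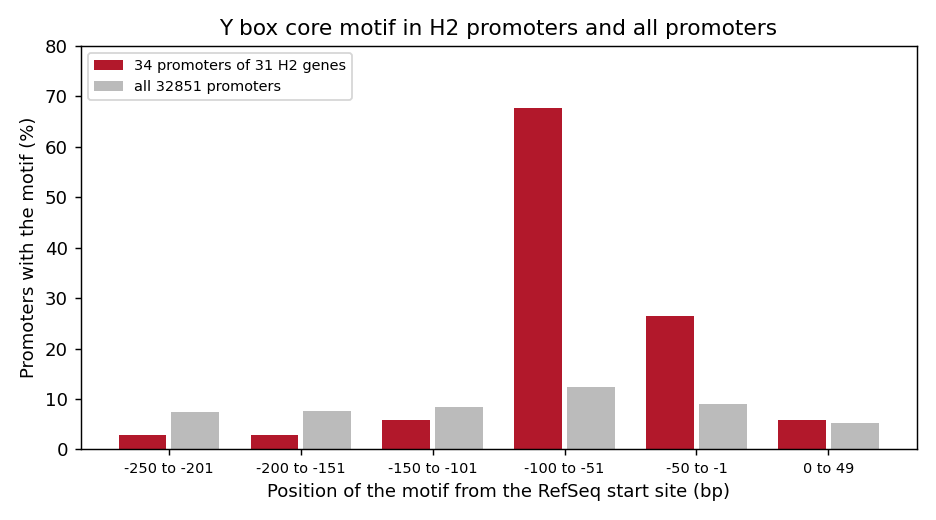
Percent of promoters with CCAAT (either strand) in bins of 50 bp from the RefSeq start, for the 34 promoter sequences of 31 H2 genes and for all 32851 promoters. The H2 promoters are highest from 100 to 51 bp before the start, at 67.6%, where all promoters are at 12.5%.

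These promoters did not share other letters to the same degree. Counted by gene again, Myb letters were in 6 of 31 (19.4%), compared with 28.3% of all promoters. The interferon response element was in the promoters of H2-T22 and H2-T23 (6.45% of genes, compared with 8.56% of all promoters). The 2 classical class I promoters had no Myb letters. Related genes also share the surrounding sequence, up to 90.3% identity between the promoters of H2-M10.3 and H2-M10.5 and 82.2% between H2-D1 and H2-Q10. CCAAT was common to genes with and without a peak, since H2-Eb1, H2-Q2 and most H2-M genes held it. Summits fell within the RefSeq promoter for 5 of 31 genes (H2-Ke6, H2-D1, H2-Q6, H2-Q7 and H2-T22). The same share over all promoters was not computed, so this count cannot be called high or low.

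Some H2 genes are close copies of each other, and reads of low mapping quality had been discarded. The share of 75-base stretches within 3 kb of the 5′ end of each gene that occur once in mm10 was therefore computed. It had a median of 97.8% over the 34 H2 genes, compared with 99.5% over 1096 other genes, and it was under 90% for 7 H2 genes (20.6%, compared with 11.1%). It was lowest for H2-Q6 (52.6%), H2-Q7 (56.4%), H2-T23 (74.1%) and H2-Q10 (80.0%). The 14 H2 genes without a peak ran from 80.0% to 100% (median 97.2%) and the 20 with a peak from 52.6% to 100% (median 97.8%). These shares cover only the surroundings of the 5′ end, whereas peaks were counted in the whole gene and 10 kb around it. At H2-T24 the share was 98.6% around the 5′ end but 52.4% in the gene body. The effect of discarded reads on the calling of peaks and on fold enrichment was not tested.

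Genes that serve antigen presentation outside the H2 family were also looked up. Of a list of 34, 29 had a summit in the gene or within 10 kb (85.3%), compared with 52.6% of all protein-coding genes. A promoter peak was listed for 25 of the 34, compared with 39.9% of all protein-coding genes. The list was chosen with earlier results of these data known, and some neighbors in it share a peak. No share for genes of similar length was computed, so the list was not ranked against the H2 genes. All 14 genes of peptide generation and class I loading had a peak. B2m, the light chain shared by class I molecules, had a promoter peak at 9.13-fold with 36 reads (25.2 to 49.8). Calr, a chaperone of class I assembly, had the highest value of the list, 19-fold with 82 reads (65.2 to 102), at 845 bp from its start.

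Within the H2 interval, Tap2, a subunit of the peptide transporter, and the proteasome subunit Psmb8 shared a peak (chr17:34209862-34211554) of 15.3-fold with 78 reads (61.7 to 97.3), 3067 bp from a Tap2 start. It was stronger than any peak within 10 kb of an H2 gene. Tap1, the other transporter subunit, had a strongest peak of 4.72-fold, and Tapbp, which tethers class I molecules to the transporter, had one of 8.21-fold with 31 reads. Canx, a further chaperone, was at 6.52-fold.

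Of the 4 class II loading genes 3 had a peak. Cd74, the invariant chain that guards the class II groove, had none, and Lgmn, a lysosomal protease, had a peak of 6.33-fold. Of the 11 regulators 9 had one. Ciita, the class II coactivator, and Rfxap had none, whereas Nlrc5, the class I coactivator, had a strongest peak of 4.60-fold with 14 reads and no promoter peak.

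The factors of the promoter module varied. Rfx5 was at 10.1-fold with 38 reads, Nfyc at 8.97-fold, Nfya at 8.12-fold, Nfyb at 5.98-fold and Creb1 at 6.6-fold with the summit 32937 bp from its start. Rfxank, of the same complex as Rfx5, was at 4.1-fold with 20 reads. Among class I-like genes outside the H2 family, Hfe, a regulator of iron uptake, was at 16-fold with the summit 7822 bp from its start, Mr1, which presents vitamin metabolites, at 6.60-fold and Cd1d1, which presents lipids, at 6.10-fold. Fcgrt and Azgp1 had none. The list gives no depth for the library, so a gene without a peak is one at which none was called.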

How the data were processed

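The authors trimmed single-end reads (75 cycles) (cutadapt 1.15), mapped them to mm10 (BWA 0.7.13) and removed duplicates with Picard. Reads of mapping quality of 30 or less and blacklisted regions were also removed. Narrow peaks were called with MACS2 2.1.1.20160309 against the IgG library, and those found in pseudo-replicates at a q-value below 0.05 were kept. The deposited list still holds peaks with a listed q-value above 0.05 (7.24% of all), and these were counted here. In the deposited list, fold enrichment is a ratio of Myb to local IgG background, and p-values and q-values were deposited as −log10 by the authors. Groups came from the sample titles.

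From these values the reads behind each peak were recovered: dividing the Myb signal by 0.7696 turned 100% of the peaks into whole reads (tolerance 0.001). More than 1 read number was possible for 2.77% of all peaks and 3 of the 57 at H2 genes (H2-DMb1, H2-Eb2, H2-Q7), and the closest was used. Summits were assigned to GENCODE vM21 genes with Python 3.11.15, pandas 2.3.3 and numpy 2.4.6, and intervals are exact (Clopper-Pearson or Poisson, 95%, scipy 1.17.1). Uniqueness counted exact matches on both strands, with every 20th protein-coding gene as background (numba 0.67.0). Promoters were aligned with Biopython 1.88. The read recovery and the uniqueness count were tested on simulated data. Named genes were all H2 genes, and from the antigen presentation list those with a peak at or above the upper quartile of all peaks (5.95-fold) besides B2m, Nlrc5, Ciita, Tap1 and Cd74; Rfxap, Rfxank, Fcgrt and Azgp1 were named to complete counts, and 1 gene of that list is not reported here by name. The members, lists and motifs were chosen with earlier results of these data known. Alternatives covered the q-value, the gene and promoter windows, the motif and its window, stretch length and the peaks counted.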

Additional observations from a re-analysis of the deposited data

How the results depend on the processing

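Of 73 alternative values, 58 were classed as near those reported and 15 as moved. Counts within a factor of 1.5 were classed as near. The share of H2 summits with Myb letters was also classed as near, although it changed with the window. It was 5.26% within 25 bp and 19.3% within 100 bp, compared with 10.5% within 50 bp. Over all summits the shares within 25 and 100 bp were 8.68% and 30.0%. At a −log10 q-value of at least 5, 12 H2 genes had a peak, 7 had a promoter peak and 25 peaks remained, with a median of 6.51-fold, and 4 nonclassical class I and 0 classical class II genes were called, since fewer peaks were counted. At this threshold 35.9% of all protein-coding genes had a peak, and their share with a promoter peak was not computed. With the window narrowed to 3 kb, 15 of 34 H2 genes had a peak, compared with 46.4% of all protein-coding genes. There were then 37 peaks and 3 nonclassical class II genes. With the gene body alone, 13 of 34 H2 genes had a peak, compared with 35.4% of all protein-coding genes. There were then 25 peaks, 5 nonclassical class I and 3 nonclassical class II genes. With 50 kb, 28 of 34 H2 genes had a peak, compared with 68.7% of all protein-coding genes, and there were 93 peaks and 16 nonclassical class I genes. These changes in count follow from the width of the window. With the looser letters AACNG, 45.6% of the summits at H2 genes held a Myb motif, compared with 54.3% of all summits. When only peaks whose nearest protein-coding start was that of an H2 gene were counted, an alternative chosen after seeing the data, 44 peaks remained and 20 genes were called. No paired analysis was possible because there was 1 Myb library and no test. Leaving out a replicate was likewise not possible. The depth of the library is not given, so genes without a peak cannot be told from genes below the limit of detection.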

Other observations

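Another 11 genes with H2 symbols are annotated as pseudogenes and were not counted above. Of these, H2-K2 had 3 peaks within 10 kb, H2-Ea-ps had 2 and H2-M6-ps had 2, whereas H2-Pb, H2-Pa, H2-Q3, H2-Q5, H2-Bl, H2-T-ps, H2-T10 and H2-M10.5-ps1 had 0.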
